A study of Mus musculus with 5 samples.

Results

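The genes described here are those of the GnRH receptor signalling cascade, 47 of the 21437 genes of the deposited expression table. They were chosen by name, from the receptor and its ligand through the Gq/11 class of G proteins, phospholipase C β, protein kinase C, IP3 receptors, Ras and MAP kinases and calmodulin-dependent kinase to RGS proteins, phosphatases and a nuclear target. The rule uses no measured value, although the list was drawn up with earlier results of these data known, and all 47 names stood in the table. RNA was sequenced from 5 untreated mouse cell lines, all grown in the same serum-containing medium and harvested before confluency. NIH3T3 is an embryonic fibroblast line of the Swiss strain. The other 4 lines come from pituitary tumours of CB6F1/J mice carrying an SV40 T antigen transgene. Of these, αT1–1 stands for an immature gonadotrope, αT3–1 for an intermediate one, LβT2 for a mature one, and TαT1 for a thyrotrope, as the lines are labelled. The text of the study calls the first of these lines progenitor and the second immature. αT1–1 and αT3–1 are labelled embryonic and LβT2 and TαT1 mature. Each stage is thus represented by a single immortalized line, and line and stage cannot be told apart.

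The unit is RPKM, which divides the reads of a gene by its length and by the sequencing depth, so that levels of different genes can be set side by side. There is 1 column per line. The methods of the study give 2 libraries per line, and whether these were pooled or averaged is not given in the sources used here. No spread between replicates could be measured. The lines were therefore compared by size alone, with no test, and each difference lacks a replicate check. The read totals recovered from the steps of the values were 14.2 to 20.7 M reads per line. For 39 of the 47 members the values could be turned back into whole reads, and their 95% Poisson intervals are given in brackets. These cover counting error only. Expressed means 1 RPKM or more throughout.

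Marker genes went with the labels for the most part. The LH subunit gene Lhb stood at 23.3 RPKM in LβT2 and at most 0.414 in the other lines, and Tshb, the β subunit of TSH, at 58.5 in TαT1 and at most 0.383 elsewhere. Nr5a1, which encodes the gonadotrope factor SF1, was at 162 RPKM in αT3–1, 265 in LβT2 and 0.687 or less in the others. Col1a1, a fibroblast collagen, was at 422 RPKM in NIH3T3 and at most 0.0452 in the pituitary lines. Col1a2, Vim and Fn1 were also far higher in NIH3T3 than in the pituitary lines. Pdgfra, another fibroblast marker, was low in NIH3T3, at 3.65 RPKM, and at 1.23 in αT3–1. Fshb, the β subunit of FSH, was an exception, at 0 in every line, LβT2 included. The thyrotrope line also held the lactotrope hormone gene Prl at 108 RPKM, and the other pituitary markers Pomc at 5.22 and Gh at 1.57. Further exceptions were Gata2, Pou1f1 and Cga. Gata2, a transcription factor listed with the thyrotrope markers, was higher in LβT2 (78.8 RPKM) than in TαT1 (51.7). Pou1f1, the factor PIT1, was at 88.0 RPKM in TαT1 but also at 3.21 in αT1–1. Cga, the common α subunit, was at 603 RPKM in αT3–1 against 8802 to 12968 in the other pituitary lines. Their part in the values of these lines was not tested.

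GnRH from the hypothalamus binds a G protein-coupled receptor on gonadotropes. The receptor activates the α subunits Gq and G11, and these activate phospholipase C β, which cleaves a membrane lipid into IP3 and diacylglycerol. IP3 opens calcium channels of the endoplasmic reticulum, while diacylglycerol and calcium activate protein kinase C. The kinases ERK, JNK and p38 follow, and they are known to act on transcription of the gonadotropin subunit genes. RGS proteins shorten the active state of the α subunits, and dual-specificity phosphatases switch MAP kinases off.

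The receptor gene Gnrhr lies on chromosome 5 from 86180754 to 86197901 on the minus strand (GRCm38, GENCODE M21). It differed more between lines than any other member. The 250 bases before its RefSeq start lie outside every annotated gene. They are printed beside those before an internal start of Plcb4, which lie in an intron, and those before Dusp6, which lie outside every gene, because these 3 members were among those that were at least 2-fold apart between the lines with and without the receptor. Capitals mark letters of 5 short motifs, searched on both strands: AAGGNCA, known for binding SF1, TGANTCA, known for binding AP-1, TGACGT, the core of the cAMP response element, TAATTA, known for binding LIM homeodomain proteins, and TATAAA, known from core promoters. The sequences are RefSeq's, on GRCm38.p6, and run 5′ to 3′ on the strand of the gene.
Gnrhr, chr5:86197902-86198151, minus strand: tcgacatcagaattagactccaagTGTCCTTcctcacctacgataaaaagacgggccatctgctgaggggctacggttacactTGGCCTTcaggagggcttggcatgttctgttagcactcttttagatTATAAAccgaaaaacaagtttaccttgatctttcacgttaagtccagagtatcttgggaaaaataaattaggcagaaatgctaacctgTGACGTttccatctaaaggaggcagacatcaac
Plcb4, chr2:135764588-135764837, plus strand: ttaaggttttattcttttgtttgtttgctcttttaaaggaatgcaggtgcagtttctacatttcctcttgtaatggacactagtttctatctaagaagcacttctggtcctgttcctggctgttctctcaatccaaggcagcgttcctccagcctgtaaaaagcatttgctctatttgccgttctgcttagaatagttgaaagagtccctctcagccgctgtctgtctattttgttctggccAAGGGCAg
Dusp6, chr10:99262981-99263230, plus strand: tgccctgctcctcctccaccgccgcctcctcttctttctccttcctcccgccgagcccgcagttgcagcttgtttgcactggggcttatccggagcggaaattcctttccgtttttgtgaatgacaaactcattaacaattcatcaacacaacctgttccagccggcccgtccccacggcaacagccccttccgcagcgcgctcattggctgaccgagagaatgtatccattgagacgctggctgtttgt
In the Gnrhr window, AAGGACA (226 to 220 bases before the start) and AAGGCCA (167 to 161 bases before it) stand on the opposite strand, so that they read TGTCCTT and TGGCCTT here. TATAAA stands 121 to 116 and TGACGT 33 to 28 bases before the start. The Plcb4 window holds AAGGGCA at 8 to 2 bases before the start, and the Dusp6 window holds none of the motifs. The window of another Plcb4 start and that of Prkcb, which overlap annotated exons and are not printed, hold none of them either. Of all 32851 mouse windows of this length, 17.5% hold AAGGNCA, 6.75% TGANTCA, 6.47% TGACGT, 4.84% TAATTA and 12.4% TATAAA. A match describes letters only. Of the 47 members, 39 had a window.

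Most of the cascade was expressed in every line, whether or not the line had the receptor. Of the 47 members, 40 were expressed in αT3–1, 38 in each of LβT2, αT1–1 and TαT1, and 33 in NIH3T3. The share of all genes expressed was 53.4% in αT3–1, 51.4% in LβT2, 50.1% in αT1–1, 50.5% in TαT1 and 44.8% in NIH3T3. In all 5 lines together 26 members were expressed, against 37.9% of all genes. In 1 to 4 lines 18 were, and 3 (Gna14, Plcb2 and Camk2a) reached 1 RPKM in no line. The highest level of a member was in αT3–1 for 17 members, in NIH3T3 for 12, in LβT2 for 10, in αT1–1 for 5 and in TαT1 for 3. Of all genes expressed in at least 1 line, 24.9% were highest in αT3–1, 22.1% in NIH3T3, 23.9% in LβT2, 12.2% in αT1–1 and 16.9% in TαT1. The count of members had no such minimum. It includes Gna14 and Camk2a under αT3–1 and Plcb2 under LβT2, which were expressed in no line. The median level of the members was 13.4 RPKM in αT3–1 and 6.16 to 8.15 in the other lines. The median over all genes was also highest in αT3–1, at 1.77 RPKM against 0.334 to 1.27.

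**Figure D1:**
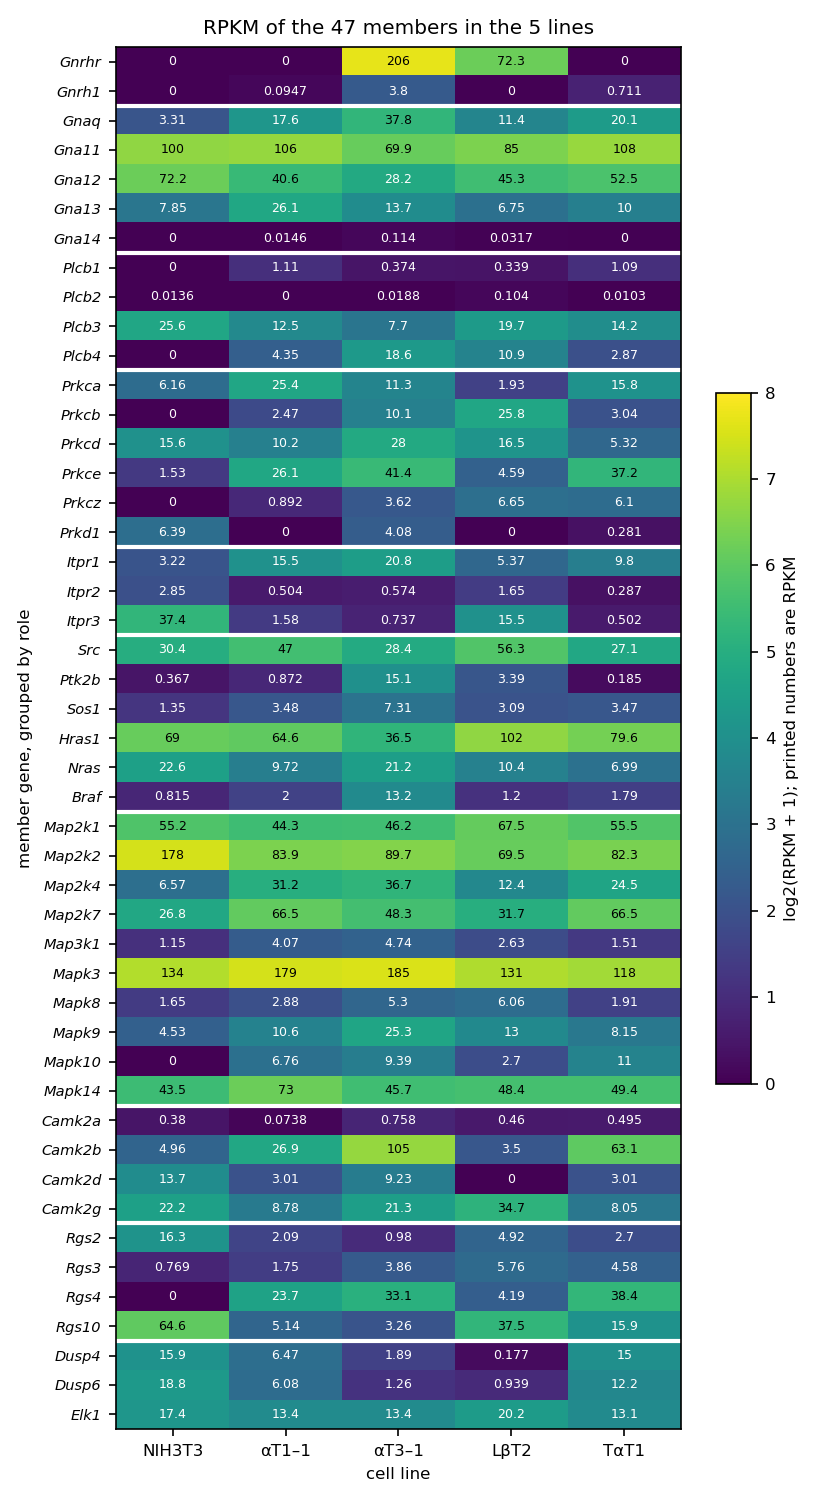
RPKM of the 47 members (rows, grouped by role from receptor to nuclear target) in the 5 lines (columns). Colour gives log2(RPKM + 1) and the printed numbers RPKM, with 1 column per line and no replicates. Gnrhr is bright in αT3–1 (206) and LβT2 (72.3) only, whereas Gna11 and Mapk3 are bright in all 5 lines.

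Gnrhr was at 0 in NIH3T3, 0 in αT1–1, 206 RPKM in αT3–1 (201 to 212), 72.3 in LβT2 (68.8 to 75.9) and 0 in TαT1. The level rests on 5150 reads in αT3–1 and 1628 in LβT2, and on no read in the other lines. There 3 reads would give 0.123 to 0.174 RPKM, and the interval of no read reaches 0.151 in αT1–1, 0.162 in TαT1 and 0.215 in NIH3T3. The level in αT3–1 was 2.85 times that in LβT2 (2.70 to 3.02). Set against that floor of 3 reads per line, it was at least 1680-fold higher in αT3–1 and at least 589-fold higher in LβT2 than in αT1–1. Here and below, at least means the level over the value of 3 reads, which is not an interval bound. The intermediate line thus held more receptor RNA than the mature line. In bulk RNA, fewer cells with the receptor and less RNA per cell cannot be told apart.

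Only 10 genes, 0.0466% of all, shared the pattern of the receptor, at 10 RPKM or more in both αT3–1 and LβT2 and under 1 RPKM in the other 3 lines. Ordered by the lower of the levels in αT3–1 and LβT2, Gnrhr was the second. The first was Nr5a1, given above. Nr0b1, which encodes the nuclear receptor DAX1, was at 13.5 RPKM in αT3–1 and 318 in LβT2, the reverse order to Gnrhr. Frmpd1, which encodes a scaffold protein, was at 48.8 RPKM in αT3–1 and 20.1 in LβT2. Sgce, which encodes ε-sarcoglycan, was at 19.8 and 23.0 RPKM. The others were 2010110P09Rik, Npepl1, Gsg1l, Speer4e and Dscaml1. No other member of the cascade had this pattern.

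Gnrh1, the gene of the GnRH peptide itself, was low throughout. It stood at 3.8 RPKM in αT3–1 (2.72 to 5.15, from 41 reads), 0.711 in TαT1 (0.286 to 1.47, 7 reads) and 0.0947 in αT1–1 (0.0024 to 0.527, 1 read), with no read in NIH3T3 and LβT2. Its level in αT3–1 was 5.34 times that in TαT1 (2.37 to 14.1) and at least 12.3-fold higher than in LβT2. It was expressed in αT3–1 alone.

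Among the α subunits, Gna11 exceeded Gnaq in every line. Gna11, which encodes G11, stood at 69.9 RPKM in αT3–1, 85.0 in LβT2, 106 in αT1–1, 108 in TαT1 and 100.3 in NIH3T3. The lowest level was that of αT3–1. Gnaq, which encodes Gq, stood at 37.8 RPKM in αT3–1 (36.7 to 38.9), 11.4 in LβT2 (10.8 to 12.1), 17.6 in αT1–1 (16.8 to 18.4), 20.1 in TαT1 (19.3 to 21) and 3.31 in NIH3T3 (2.93 to 3.74). It was highest where Gna11 was lowest, so that Gna11 held 64.9% of the summed RPKM of Gnaq, Gna11 and Gna14 in αT3–1 and 84.2% to 96.8% in the other lines. The Gnaq level in αT3–1 was 3.31 times that in LβT2 (3.10 to 3.53) and 2.15 times that in αT1–1 (2.04 to 2.26). Gna14, another α subunit of this class, was at 0.114 RPKM or less in each line.

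The G12 class, a separate class of α subunits, was expressed in all lines. Gna12 was at 28.2 RPKM in αT3–1, 45.3 in LβT2, 40.6 in αT1–1, 52.5 in TαT1 and 72.2 in NIH3T3. Of the words of 36 bases in its longest coding transcript, 11.7% also occur in other genes, mostly Amz1 on the opposite strand, and the library kit does not mark the strand. Gna13 was highest in αT1–1, at 26.1 RPKM (25.2 to 27.0), and 3.87 times as high there as in LβT2 (3.58 to 4.19), where it stood at 6.75.

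Phospholipase C β, the enzyme that Gq and G11 activate, changed its leading isoform between lines. Plcb3 was at 7.70 RPKM in αT3–1 (7.12 to 8.30), 19.7 in LβT2 (18.7 to 20.7), 12.5 in αT1–1 (11.7 to 13.2), 14.2 in TαT1 (13.4 to 15.1) and 25.6 in NIH3T3 (24.3 to 26.9). Plcb4 had no read in NIH3T3 and stood at 18.6 RPKM in αT3–1 (17.6 to 19.5), 10.9 in LβT2 (10.1 to 11.7), 4.35 in αT1–1 (3.89 to 4.85) and 2.87 in TαT1 (2.49 to 3.30). Both lines with the receptor thus exceeded the other lines in Plcb4, and the intervals of the 2 sides did not overlap. Plcb4 held 69.6% of the summed RPKM of the 4 Plcb members in αT3–1, and Plcb3 held the largest share in each of the other lines. Plcb4 in LβT2 was 2.50 times its level in αT1–1 (2.19 to 2.86) and 3.78 times that in TαT1 (3.23 to 4.44). Plcb1 was expressed, barely, in αT1–1 (1.11 RPKM) and TαT1 (1.09), and Plcb2 was at 0.104 RPKM or less in each line.

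**Figure D2:**
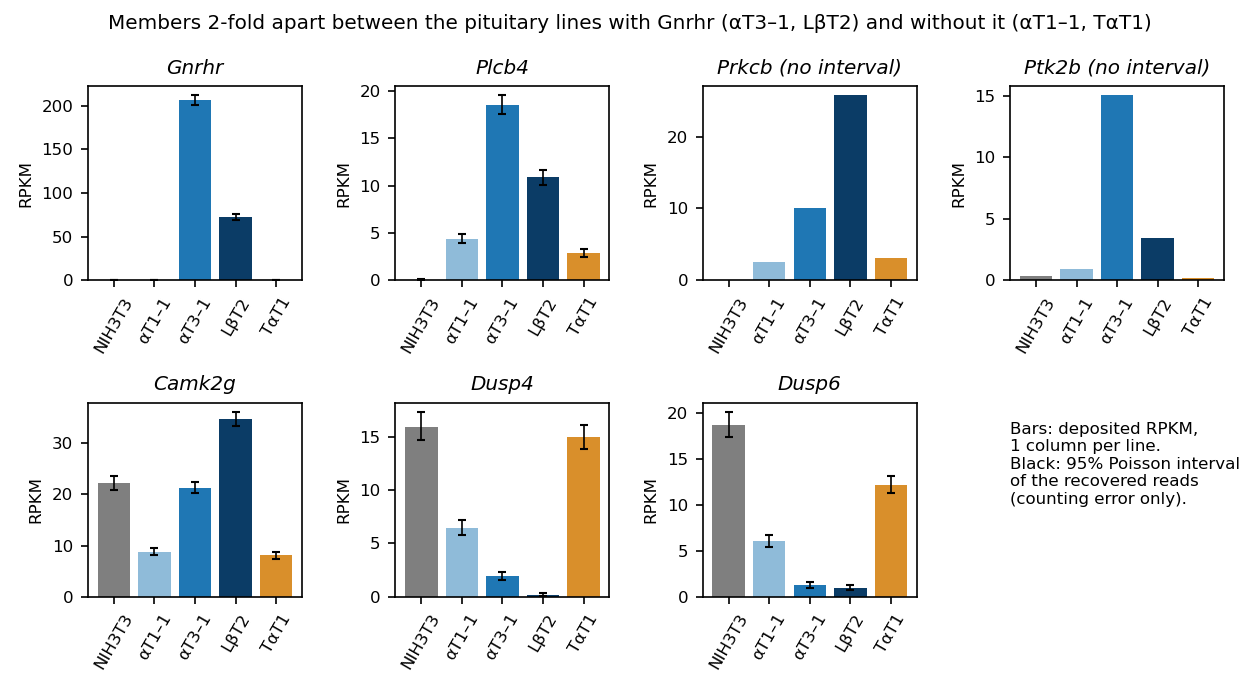
RPKM in the 5 lines of the 7 members that were at least 2-fold higher or lower in both αT3–1 and LβT2 than in both αT1–1 and TαT1. Bars are the deposited values and black lines 95% Poisson intervals (counting error only, not recovered for Prkcb and Ptk2b). Camk2g, Dusp4 and Dusp6 are also high in NIH3T3 (22.2, 15.9 and 18.8 RPKM), which has no receptor.

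Protein kinase C showed a different isoform in front in different lines. Prkcb, a conventional isoform activated by calcium and diacylglycerol, was listed at 0 in NIH3T3 and stood at 10.1 RPKM in αT3–1, 25.8 in LβT2, 2.47 in αT1–1 and 3.04 in TαT1. Prkca, the other conventional member, stood at 11.3 RPKM in αT3–1, 1.93 in LβT2, 25.4 in αT1–1, 15.8 in TαT1 and 6.16 in NIH3T3. LβT2 thus had the highest Prkcb and the lowest Prkca of the 5 lines, and αT1–1 the highest Prkca and the lowest Prkcb of the pituitary lines. The ratio of LβT2 to αT1–1 was 10.4 for Prkcb, and that of αT1–1 to LβT2 was 13.2 for Prkca. No whole reads were recovered for Prkca, Prkcb and Prkcd, so these values have no interval.

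Prkce, an isoform that needs diacylglycerol but no calcium, stood at 41.4 RPKM in αT3–1 (40.3 to 42.6), 4.59 in LβT2 (4.21 to 5.00), 26.1 in αT1–1 (25.2 to 27.0), 37.2 in TαT1 (36.1 to 38.3) and 1.53 in NIH3T3 (1.28 to 1.81). It was low in LβT2 and NIH3T3 and high in the other 3 lines, 9.02 times as high in αT3–1 as in LβT2 (8.25 to 9.88). Prkcd, of the same type, was at 28.0 RPKM in αT3–1, 16.5 in LβT2, 10.2 in αT1–1, 5.32 in TαT1 and 15.6 in NIH3T3. Prkcz, an atypical isoform, had no read in NIH3T3 and 3.62 RPKM in αT3–1, 6.65 in LβT2, 0.892 in αT1–1 and 6.10 in TαT1, and 21.8% of its words also occur in another gene model. Of the summed RPKM of these 5 isoforms, Prkcd held 67.0% in NIH3T3, Prkce 40.2% in αT1–1, 43.9% in αT3–1 and 55.1% in TαT1, and Prkcb 46.5% in LβT2. With the other genes of the family included, Prkcq led in LβT2, at 43.2 RPKM and 41.7% of the sum. Prkcq, which needs no calcium either and is best known from T cells, was at 0.192 RPKM or less in each of the other lines.

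Prkd1, protein kinase D1, which protein kinase C activates, was present or absent line by line. It stood at 6.39 RPKM in NIH3T3 (5.74 to 7.11), 4.08 in αT3–1 (3.65 to 4.56) and 0.281 in TαT1 (0.172 to 0.434), with no read in αT1–1 and LβT2. The level in αT3–1 was at least 104-fold higher than in αT1–1 and at least 95.9-fold higher than in LβT2. The related Prkd2 lay between 6.59 and 12.6 RPKM in the pituitary lines and at 2.63 in NIH3T3, and Prkd3 was highest in αT3–1, at 11.6 RPKM.

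The IP3 receptors, the calcium channels of the endoplasmic reticulum, also differed by isoform. Itpr1 stood at 20.8 RPKM in αT3–1 (20.2 to 21.4), 5.37 in LβT2 (5.04 to 5.71), 15.5 in αT1–1 (14.9 to 16.0), 9.80 in TαT1 (9.36 to 10.3) and 3.22 in NIH3T3 (2.93 to 3.53). Itpr3 stood at 0.737 RPKM in αT3–1 (0.618 to 0.871), 15.5 in LβT2 (14.9 to 16.1), 1.58 in αT1–1 (1.41 to 1.78), 0.502 in TαT1 (0.401 to 0.620) and 37.4 in NIH3T3 (36.4 to 38.5). LβT2 and NIH3T3 were thus the lowest lines by Itpr1 and the highest by Itpr3. Itpr1 held 88.1% of the summed RPKM of the 3 genes in αT1–1, 94.1% in αT3–1 and 92.6% in TαT1, whereas Itpr3 held 86.0% in NIH3T3 and 68.9% in LβT2. LβT2 exceeded αT3–1 in Itpr3 21.1-fold (17.8 to 25.2), and αT3–1 exceeded LβT2 in Itpr1 3.87-fold (3.61 to 4.16). Itpr2 was at 2.85 RPKM in NIH3T3, 1.65 in LβT2 and under 1 in the others.

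**Figure D3:**
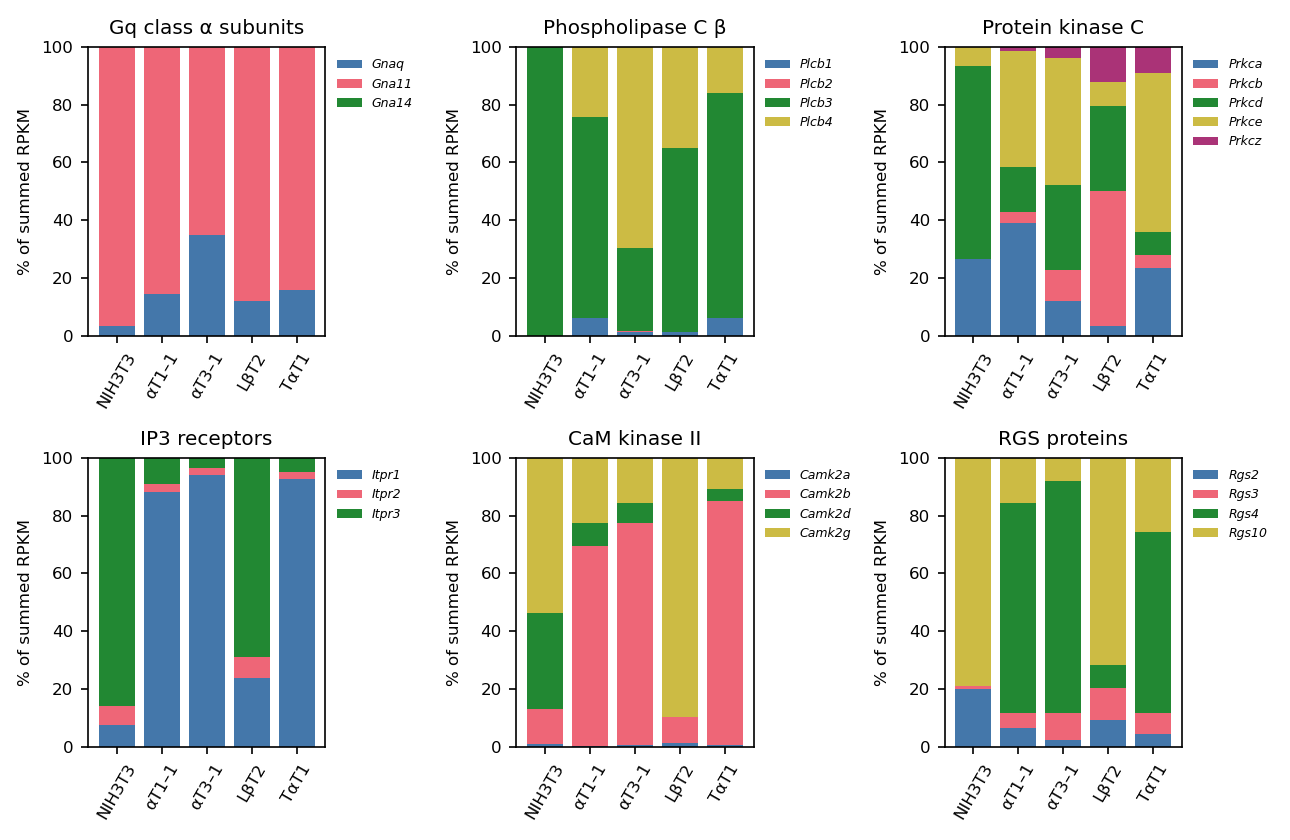
Share of the summed RPKM of each family held by its members in each line, in percent, for 6 families. Bars are single deposited columns with no replicates, and other genes of a family are left out. LβT2 and NIH3T3 have the same leading gene in the IP3 receptor, CaM kinase II and RGS panels (without Rgs19, which exceeds Rgs10 in LβT2), which is Itpr3 (68.9% in LβT2), Camk2g (89.8%) and Rgs10 (71.6%), and Plcb4 leads in αT3–1 alone (69.6%).

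Among the tyrosine kinases, the Ras proteins and their partners, Ptk2b and Braf differed most between lines. Src, a tyrosine kinase, was at 27.1 to 56.3 RPKM and highest in LβT2, and Hras1, a Ras GTPase, was at 36.5 to 102 RPKM and lowest in αT3–1. Nras was at 6.99 to 22.6 RPKM and Sos1, a Ras exchange factor, at 1.35 to 7.31. Ptk2b, the calcium-sensitive tyrosine kinase PYK2, stood at 15.1 RPKM in αT3–1, 3.39 in LβT2, 0.872 in αT1–1, 0.185 in TαT1 and 0.367 in NIH3T3. Ptk2b thus reached 1 RPKM only in the lines with the receptor. Ptk2b was 17.3 times as high in αT3–1 and 3.89 times as high in LβT2 as in αT1–1, without an interval because no whole reads were recovered. Braf, a kinase between Ras and the MAP kinase kinases, stood at 13.2 RPKM in αT3–1 (12.7 to 13.7), 1.20 in LβT2 (1.05 to 1.37), 2.0 in αT1–1 (1.81 to 2.21), 1.79 in TαT1 (1.60 to 1.99) and 0.815 in NIH3T3 (0.672 to 0.980). Braf was thus high in αT3–1 alone, 11 times its level in LβT2 (9.57 to 12.7).

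Mapk3, which encodes ERK1, was the highest member in αT1–1, LβT2 and TαT1, and came after Map2k2 in NIH3T3 and after Gnrhr in αT3–1. It stood at 185 RPKM in αT3–1 (181 to 190), 131 in LβT2 (127 to 135), 179 in αT1–1 (174 to 183), 118 in TαT1 (115 to 122) and 134 in NIH3T3 (130 to 139). The kinases that activate ERK were also high, Map2k1 at 44.3 to 67.5 RPKM and Map2k2 at 69.5 to 178. Mapk14, which encodes p38α, was at 43.5 to 73.0 RPKM. In the JNK branch the lines differed more. Map2k4, which activates JNK, stood at 36.7 RPKM in αT3–1, 12.4 in LβT2, 31.2 in αT1–1, 24.5 in TαT1 and 6.57 in NIH3T3. Map2k4 was 2.96 times as high in αT3–1 as in LβT2 (2.74 to 3.20). Map2k7, the other activator of JNK, was at 26.8 to 66.5 RPKM, but 37.7% of its words also occur in another gene model. Map3k1, an upstream kinase, was at 1.15 to 4.74 RPKM.

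The JNK genes themselves differed in kind. Mapk9 was the leading JNK gene in each line but TαT1, at 25.3 RPKM in αT3–1, 13 in LβT2, 10.6 in αT1–1, 8.15 in TαT1 and 4.53 in NIH3T3. Mapk10, known as the JNK of neurons, was listed at 0 in NIH3T3 and stood at 9.39 RPKM in αT3–1, 2.70 in LβT2, 6.76 in αT1–1 and 11 in TαT1. It held 52.2% of the JNK sum in TαT1. Mapk8 was at 1.65 to 6.06 RPKM and highest in LβT2.

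Calmodulin-dependent kinase II, which calcium activates, showed the widest split between αT3–1 and LβT2. Camk2b stood at 105 RPKM in αT3–1, 3.50 in LβT2, 26.9 in αT1–1, 63.1 in TαT1 and 4.96 in NIH3T3. Camk2d had no read in LβT2 and stood at 9.23 RPKM in αT3–1 (8.62 to 9.87), 3.01 in TαT1 (2.65 to 3.40), 3.01 in αT1–1 (2.66 to 3.39) and 13.7 in NIH3T3 (12.8 to 14.7). Camk2g stood at 21.3 RPKM in αT3–1 (20.3 to 22.4), 34.7 in LβT2 (33.4 to 36.2), 8.78 in αT1–1 (8.12 to 9.48), 8.05 in TαT1 (7.40 to 8.75) and 22.2 in NIH3T3 (20.9 to 23.5). LβT2 therefore held nearly only Camk2g, 89.8% of the summed RPKM, while Camk2b held 69.4% in αT1–1, 77% in αT3–1 and 84.5% in TαT1. Camk2b was 29.9 times as high in αT3–1 as in LβT2, and Camk2d at least 256-fold higher. Camk2a, the isoform best known from neurons, was at 0.758 RPKM or less in each line.

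Among the 4 RGS members, which speed the hydrolysis of GTP on α subunits, Rgs10 was the highest in LβT2 and NIH3T3 and Rgs4 in αT1–1, αT3–1 and TαT1. Rgs4 had no read in NIH3T3 and stood at 33.1 RPKM in αT3–1 (31.7 to 34.6), 4.19 in LβT2 (3.67 to 4.77), 23.7 in αT1–1 (22.4 to 24.9) and 38.4 in TαT1 (36.8 to 40.1). Rgs10 stood at 3.26 RPKM in αT3–1 (2.48 to 4.20), 37.5 in LβT2 (34.6 to 40.6), 5.14 in αT1–1 (4.14 to 6.31), 15.9 in TαT1 (14.0 to 17.9) and 64.6 in NIH3T3 (60.2 to 69.2). Rgs4 held 72.5%, 80.4% and 62.4% of the sum of these 4 members in αT1–1, αT3–1 and TαT1, and Rgs10 held 79.1% in NIH3T3 and 71.6% in LβT2. The sum leaves out the other RGS genes, of which Rgs19 was at 18.9 RPKM in αT3–1, 39.3 in LβT2, 42.2 in αT1–1, 31.0 in TαT1 and 63.4 in NIH3T3. Rgs19 thus exceeded each RGS member in αT1–1 and LβT2, and with it counted the split by leading gene did not hold. Rgs10 in LβT2 was 11.5 times its level in αT3–1 (8.81 to 15.3), and Rgs4 in αT3–1 was 7.90 times its level in LβT2 (6.89 to 9.10). Rgs2, which acts chiefly on Gq, was highest in NIH3T3 (16.3 RPKM) and lay between 0.980 and 4.92 RPKM in the others, lowest in αT3–1. Rgs3 was at 3.86 RPKM in αT3–1, 5.76 in LβT2, 1.75 in αT1–1, 4.58 in TαT1 and 0.769 in NIH3T3.

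Dusp4 and Dusp6, phosphatases that switch ERK off and whose genes ERK signalling induces, were low in both lines with the receptor. Dusp4 stood at 1.89 RPKM in αT3–1 (1.53 to 2.31), 0.177 in LβT2 (0.0763 to 0.348, 8 reads), 6.47 in αT1–1 (5.78 to 7.23), 15 in TαT1 (13.9 to 16.1) and 15.9 in NIH3T3 (14.6 to 17.3). Dusp6 stood at 1.26 RPKM in αT3–1 (0.989 to 1.59), 0.939 in LβT2 (0.695 to 1.24), 6.08 in αT1–1 (5.45 to 6.76), 12.2 in TαT1 (11.2 to 13.1) and 18.8 in NIH3T3 (17.4 to 20.1). Dusp4 in TαT1 was 84.7 times its level in LβT2 (42.7 to 197), and Dusp6 was 13 times its level there (9.68 to 17.7). Dusp6 in αT3–1 and in LβT2 were indistinguishable by counting error, with a ratio of 1.34 (0.923 to 1.97). Elk1, a transcription factor that ERK phosphorylates, was even, at 13.1 to 20.2 RPKM.

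Differences between lines were counted on the log2(RPKM + 1) scale, which understates those of low genes, among genes expressed in at least 1 of the lines compared. Higher and lower mean by 1 or more on this scale, that is 2-fold, by size alone. The comparisons share lines and are not independent of each other. From αT1–1 to αT3–1, 15 of 43 members were higher and 3 lower, against 19.3% and 12.1% of all genes, with a median difference of 0.41 against 0.04. The higher members included Gnrhr, Gnaq, Plcb4, Prkcb, Prkcd, Ptk2b, Nras, Braf, Mapk9, Camk2b, Camk2d and Camk2g, while the lower were Prkca, Dusp4 and Dusp6. None of the members that are IP3 receptors or RGS proteins was among the higher on this scale, nor was Elk1. These classes are too small to set against the share of all genes. Of 7 other RGS genes compared, 2 were higher (Rgs7 and Rgs16) and 3 lower. Of 10 other nuclear targets, 2 were higher and 4 lower. Rgs3, at 2.21 times its αT1–1 level (1.91 to 2.57), was counted as higher with a pseudocount of 0.1 or scaled to Actb.

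From αT1–1 to LβT2, 9 of 42 members were higher and 12 lower, against 20.8% and 16.2% of all genes, with a median of −0.02 against 0.12. Itpr3, Rgs3 and Rgs10 were among the higher members, and Prkca, Prkce, Itpr1, Camk2b and Rgs4 among the lower. With the values scaled to Actb, the split became 12 higher and 9 lower, with a median of 0.26 over the members and 0.41 over all genes, so that all genes moved as well. From αT3–1 to LβT2, 6 of 43 members were higher and 16 lower, against 20.6% and 21.3% of all genes, with a median of −0.66 against 0.01. The higher members were Plcb3, Prkcb, Itpr3, Hras1, Rgs2 and Rgs10. The lower ones included Gnrhr itself, Gnaq, Prkce, Itpr1, Braf, Map2k4, Camk2b and Rgs4.

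From LβT2 to the thyrotrope line TαT1, 9 of 42 members were higher and 11 lower, against 17.1% and 20.4% of all genes, with a median of −0.13 against −0.08. Prkce, Camk2b, Rgs4, Dusp4 and Dusp6 were among the higher members and Gnrhr, Prkcb, Itpr3, Ptk2b and Rgs10 among the lower. Scaled to Actb, 8 were higher and 16 lower, and the medians became −0.69 over the members and −0.64 over all genes. In each of the 4 pituitary lines against NIH3T3, 6 of 44 members were higher and 2 lower, against 10.5% and 8.63% of all genes. The higher ones were Gnaq, Plcb4, Prkcb, Prkce, Mapk10 and Rgs4, and the lower ones Itpr3 and Rgs2. This split depended on the scaling, with 5 higher and 3 lower under median-of-ratios scaling, 4 and 4 under quantile normalization, and 15 and 0 scaled to Actb, which moved the median difference of all genes from 0.31 to 1.07.

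In both lines with Gnrhr against both pituitary lines without it, 5 of 44 members were higher in every pair of lines and 2 lower, against 3.54% and 2.24% of all genes. The higher members were Gnrhr, Plcb4, Prkcb, Ptk2b and Camk2g, and the lower Dusp4 and Dusp6. Gnrhr defined the groups, so its own difference is a description and its place among the 5 was fixed in advance. The median over the members was 0.15 against 0.06 over all genes. At 4-fold, Gnrhr alone remained.

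**Figure D4:**
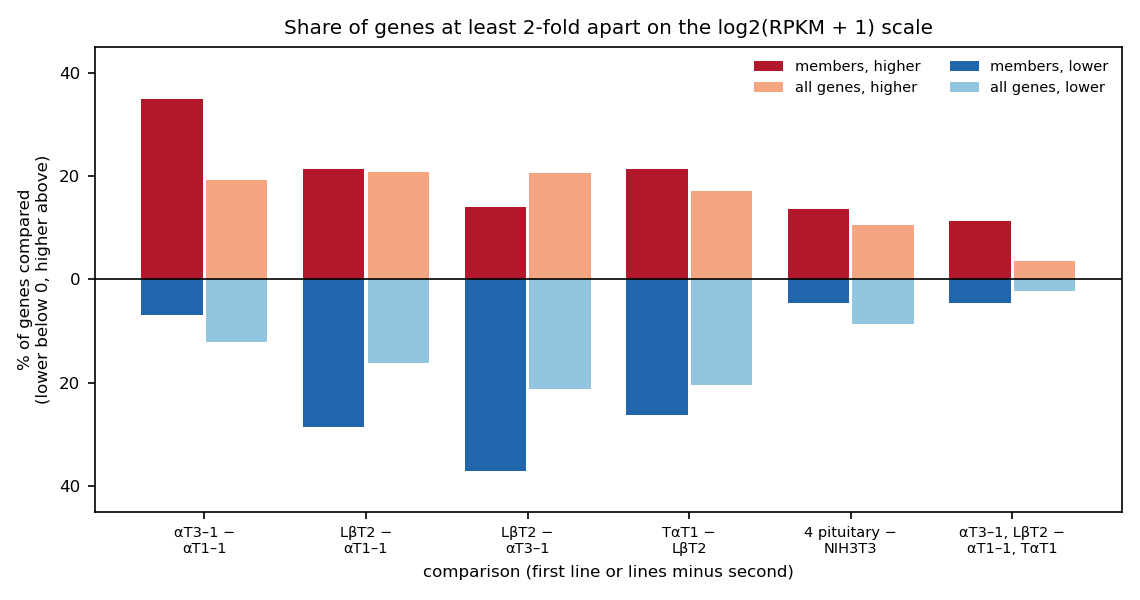
Percent of genes at least 2-fold higher (above 0) or lower (below 0) on the log2(RPKM + 1) scale in 6 comparisons, for the members (dark bars) and for all genes (light bars), among genes expressed in a line compared. No replicates stand behind the bars, and Gnrhr, which defines the groups of the last comparison, is counted in it. Members exceed all genes most clearly in αT3–1 against αT1–1 (15 of 43 higher, 19.3% of all genes) and in LβT2 against αT3–1 (16 of 43 lower, 21.3% of all genes).

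The wider pathway was counted in 9 lists of other genes, 195 in the table, which hold βγ subunits and receptor kinases, other phospholipases C, other kinases C and D, calcium handling, other Ras and MAP kinase genes, other RGS proteins, other phosphatases, other nuclear targets and other Gq-coupled receptors. From αT1–1 to αT3–1, 31 of 133 list genes were higher (23.3%) and 24 lower (18.0%), against 19.3% and 12.1% of all genes. From αT3–1 to LβT2, 34 of 137 were higher (24.8%) and 34 lower (24.8%), against 20.6% and 21.3%. From αT1–1 to LβT2, 29 of 136 were higher (21.3%) and 30 lower (22.1%), against 20.8% and 16.2%. From LβT2 to TαT1, 26 of 135 were higher (19.3%) and 32 lower (23.7%), against 17.1% and 20.4%. In both lines with Gnrhr against both pituitary lines without it, 8 of 148 list genes were higher (5.41%) and 5 lower (3.38%). The shares of all genes there were 3.54% and 2.24%.

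The list genes that differed most between lines, named by their range, included several that were highest in LβT2. Gnb3, a G protein β subunit, was at 94.8 RPKM in LβT2, 1.94 in αT3–1 and 0.268 or less in the other lines. Mapk13, which encodes p38δ, was at 98.9 RPKM in LβT2 and at most 0.153 elsewhere. Mapk12, which encodes p38γ, was at 55.0 RPKM in LβT2, 15.5 in αT3–1, 11 in TαT1, 6.30 in αT1–1 and 0.520 in NIH3T3. Both p38 genes thus stood out in LβT2, unlike Mapk14 described above. Plcd3, a phospholipase C δ, was highest in LβT2 (38.5 RPKM) and lowest in TαT1 (0.210). Calm2, a calmodulin gene, was at 390 RPKM in LβT2, 242 in αT3–1 and 88.0 to 157 in the rest, while Orai1, a pore of store-operated calcium entry, was at 14.2 RPKM in LβT2, 17.4 in NIH3T3 and 2.48 to 5.73 in the rest.

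Other list genes stood out in αT3–1. Plce1, phospholipase C ε, which Ras GTPases activate, was at 35.8 RPKM in αT3–1, 1.59 in LβT2 and at most 0.246 elsewhere. Rasgrf1, a calcium-sensitive Ras exchange factor, was at 45 RPKM in αT3–1 and 7.65 in αT1–1, at 0.482 in TαT1 and at 0 in LβT2 and NIH3T3. Both thus had their highest level in the same line as Ptk2b and Braf. Gng3, a G protein γ subunit known from neurons, was at 252 RPKM in αT3–1, 52.3 in LβT2, 84.3 in αT1–1, 183 in TαT1 and 0 in NIH3T3. Adrbk2, a receptor kinase, was at 33.5 RPKM in αT3–1, 20 in αT1–1, 9.74 in TαT1, 3.43 in LβT2 and 0 in NIH3T3. Dgka, which removes diacylglycerol, was at 11.6 RPKM in αT3–1 and 1.77 to 3.08 elsewhere.

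Other RGS proteins, inhibitors of kinase signalling, the EGF receptor and nuclear targets differed as well. Rgs16 was at 11.9 RPKM in αT3–1 and at most 0.571 elsewhere. Rgs7 was at 24.5 RPKM in αT3–1, 12.4 in LβT2, 5.43 in αT1–1, 4.87 in TαT1 and 0 in NIH3T3. Rgs9 was highest in αT1–1 (16.3 RPKM). Spry4, an inhibitor of receptor tyrosine kinase signalling, was at 10.7 RPKM in αT1–1, 4.09 in TαT1, 2.80 in αT3–1, 0.105 in LβT2 and 0.184 in NIH3T3. Spry4 was thus lower in both lines with the receptor than in both pituitary lines without it, as Dusp4 and Dusp6 were, although the step from TαT1 to αT3–1 was small. Dusp16, a phosphatase of JNK, was at 31.3 RPKM in αT1–1, 19.0 in αT3–1, 8.28 in TαT1, 3.17 in LβT2 and 2.86 in NIH3T3. Egfr, the EGF receptor, was at 43.3 RPKM in αT1–1, 9.16 in TαT1 and 1.57 or less in the other lines. Among the targets, Elk3 was at 0.177 RPKM in LβT2 and 7.39 to 23.3 elsewhere, Jun was lowest in LβT2 (8.26 RPKM, 13.7 in αT3–1), Atf3 was highest in αT1–1 (32.7 RPKM) and Fos in TαT1 (10.3 RPKM).

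**Figure D5:**
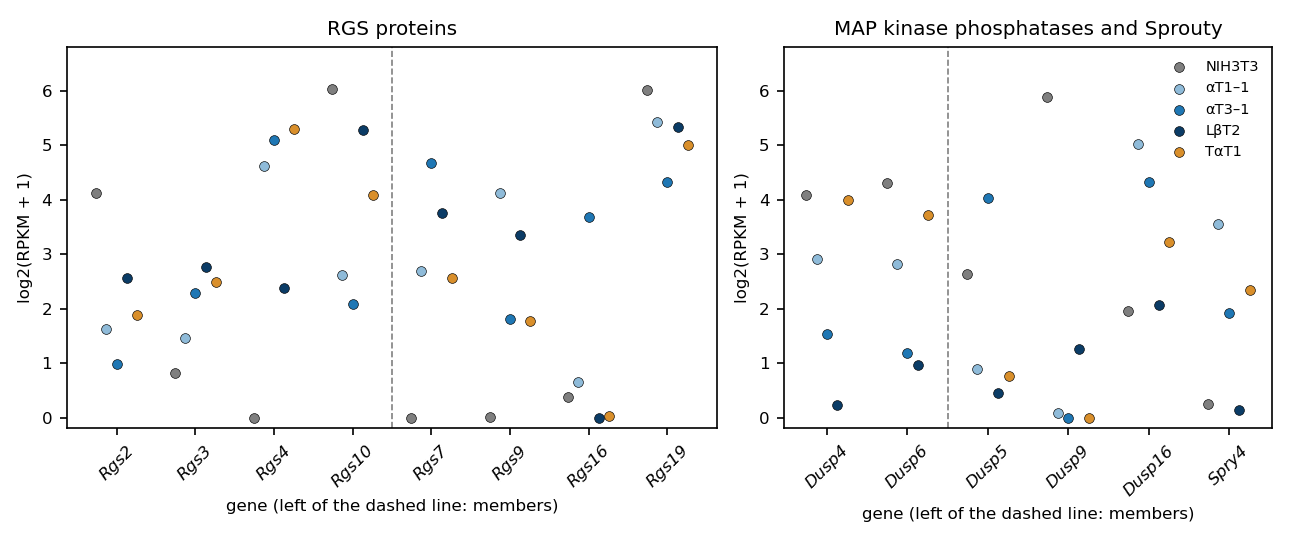
Levels as log2(RPKM + 1) of RGS proteins (left) and of dual-specificity phosphatases with Spry4 (right), 1 point per line with no replicates. Genes left of each dashed line are members, the others the named genes of the wider lists. Dusp4 and Dusp6 are lower in αT3–1 and LβT2 than in the other 3 lines, while Dusp5 is highest in αT3–1 (15.3 RPKM) and Dusp9 in NIH3T3 (58.2 RPKM).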

How the data were processed

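The authors sequenced TruSeq v2 libraries of the 5 lines, which do not mark the strand, in single-end reads of 36 bp. They aligned them with CASAVA (version, genome build, annotation and treatment of multiply aligned reads not given in the sources used here) and deposited the result as RPKM. Of 21476 entries, 25 bear a date for a name and were left out, and 9 repeated symbols were taken at the higher mean. All 5 columns were used, 1 per line. The chromatin measurements of the study were not analysed here.

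Read totals were taken from the step of the low values in each column (αT3–1 20.7 M, LβT2 18.7 M, αT1–1 20.2 M, TαT1 18.8 M and NIH3T3 14.2 M reads). For each gene the shortest length between 150 and 15000 bp that makes all values whole reads was sought, and 15471 of 17489 genes above 0 (88.5%) gave whole reads after 634 longer than 1.05 times their annotated exons were left out. Reads are the smallest whole numbers that fit. Intervals are exact Poisson intervals for levels and exact binomial ones for ratios, at 95%, and cover counting error only. The steps were tested on simulated data. Differences used log2(RPKM + 1). Shared words are words of 36 bases of a gene's longest coding transcript that occur in other GENCODE M21 transcripts.

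The members and lists were chosen with earlier results of these data known. All members could be named, with up to 4 genes per list at 10 RPKM or more in a line by the range of log2(RPKM + 1), and the 10 genes with the receptor's pattern. Trhr and Oxtr were named after their values were seen. Alternatives were other pseudocounts, minimums and thresholds, 3 rescalings and wider families. Python 3.11.15, NumPy 2.4.6, pandas 2.3.3, SciPy 1.17.1 and Matplotlib 3.10.9 were used.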

Additional observations from a re-analysis of the deposited data

How the results depend on the processing

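Of 121 counts and shares recomputed under other settings, 29 moved. A count moved if it changed by more than 1.5 times or to 0, and a share if it changed by 1 percentage point or more. The 405 recomputed differences of single members covered only those already called 2-fold apart between single lines. None changed sign, which another pseudocount cannot bring about in any case. Nor could the median-of-ratios or Actb scaling, with factors of 0.940 to 1.06 and 0.666 to 1.01 in the pituitary lines. Factors this close cannot reverse a 2-fold difference. With a pseudocount of 0.1, the lower members from αT1–1 to αT3–1 became 6 and the higher members of the 4 pituitary lines against NIH3T3 became 10. With a pseudocount of 5, the counts were 7 higher and 0 lower from αT1–1 to αT3–1, 5 and 7 from αT1–1 to LβT2, 7 lower from LβT2 to TαT1, 0 higher against NIH3T3, and 1 higher and 0 lower in the lines with Gnrhr against αT1–1 and TαT1. At 4-fold, they were 5 higher and 0 lower from αT1–1 to αT3–1, 5 and 6 from αT1–1 to LβT2, 2 and 8 from αT3–1 to LβT2, 3 lower from LβT2 to TαT1, 1 and 0 against NIH3T3, and 1 and 0 in the lines with Gnrhr. Scaled to Actb, the counts against NIH3T3 were 15 higher and 0 lower, and under quantile normalization 4 were lower. With all genes of the kinase C family in the sum, the share of Prkcd in NIH3T3 was 48.0%, of Prkce 31.4% in αT1–1, 38.7% in αT3–1 and 49.0% in TαT1, and of Prkcb 24.8% in LβT2. A stricter threshold or a larger pseudocount gives fewer calls by construction, and for the rescalings the cause was not tested. No paired analysis was possible because each line has 1 column, and for the same reason no library could be left out.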

Other observations

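Other receptors than Gnrhr also couple to Gq, and few of them were expressed. Of 43 such receptors, 16 reached 1 RPKM in a line, 8 in NIH3T3, 6 in each of αT3–1 and TαT1, 4 in LβT2 and 3 in αT1–1. The share of all genes expressed was 44.8% in NIH3T3, 53.4% in αT3–1, 50.5% in TαT1, 51.4% in LβT2 and 50.1% in αT1–1. In NIH3T3 the receptors for bradykinin (Bdkrb2, 12.8 RPKM), ATP and UTP (P2ry2, 22.1) and lysophosphatidic acid (Lpar1, 10.3) were at their highest, and none of these 3 exceeded 1.10 RPKM in a pituitary line. F2r, a thrombin receptor, was at 16.9 RPKM in αT3–1, 13.3 in NIH3T3, 9.88 in TαT1, 6.25 in αT1–1 and 1.69 in LβT2. The highest of the F2r levels was thus in the line with the highest Gnrhr, but the lowest was in LβT2, the other line with Gnrhr.

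Of the receptors named after their values were seen, Trhr, the receptor for TRH on thyrotropes, was at 2.99 RPKM in TαT1 and at 0 in the other lines. Oxtr, the oxytocin receptor, was at 9.48 RPKM in αT3–1, 0.790 in αT1–1 and 0.337 or less in the others.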
